A study of Homo sapiens with 25 samples.

Results

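The ID proteins ID1, ID2, ID3 and ID4 and the inhibitory SMADs SMAD6 and SMAD7 were followed in 3 human breast cancer cell lines treated with erlotinib, an inhibitor of the EGFR kinase. The 6 genes were chosen by name from the 19775 genes that a single symbol identifies on the arrays. All 6 passed the filter on low values, as did 12643 of the 19775 genes. Their probe sets were those annotated to 1 of the 6 symbols and to no other gene, 14 in all, of which 11 passed the filter. One further probe set, which names ID2 together with another gene, was left out. Where a gene had several probe sets, the one with the highest mean over the 25 arrays leads the account of that gene.

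The samples were BT20 cells, a basal-like line with high EGFR, at 0 min, 30 min, 6 h and 24 h of erlotinib (4, 3, 3 and 3 arrays), MDA-MB-453 cells, a line with high ERBB2, at 24 h and 0 min (3 arrays each), and a line labelled only MCF at 24 h and 0 min (3 arrays each). All cells had been plated in medium with serum and left for 24 h to attach, and the drug was then given at 10 µM; the 0 min cells are the untreated state. No culture was kept for 24 h without drug, so drug and time in culture cannot be told apart. The labels do not say whether replicates were separate cultures, so p-values measure the spread between these samples, which may be technical, and the number of arrays limits their precision. BT20 and MDA-MB-453 were run as Part 1 of the study (19 arrays) and MCF as Part 2 (6 arrays), and the upper quartile of an array lay at 7.65 to 7.81 in Part 1, above the 7.27 to 7.32 of Part 2. Levels are therefore compared within Part 1 only.

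The epithelial marker EPCAM had log2 values of 12.1 to 12.8 on every array of the 3 lines. EGFR was at 11.7 to 12.6 and the basal keratin KRT5 at 11.3 to 12.7 in BT20, though KRT14 did not exceed 4.37 there. EGFR was at 3.30 to 3.70 in MDA-MB-453, where ERBB2 was at 10.7 to 11.4. The estrogen receptor gene ESR1 was at 12.4 to 12.7 in MCF, and it was also at 8.50 to 9.28 in BT20. The 3 blood markers measured (PTPRC, CD3E and CD14) did not exceed 3.96 on any array. COL1A1, a fibroblast marker, was at 7.19 to 11.4 across the lines and CDH5, an endothelial marker, at 10.7 to 11.9 in BT20. The other 3 fibroblast markers did not exceed 5.73, nor the other 2 endothelial markers 4.90. One BT20 0 min array, replicate 4, correlated with the 6 h arrays across genes at r = 0.990 to 0.992 and with the other 0 min arrays at 0.971 to 0.975. The main BT20 results of the 6 genes are therefore also given with a batch term, which leaves replicate 4 as the only control of the 6 h arrays and replicates 1 to 3 as the controls of the 30 min and 24 h arrays.

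ID proteins are small helix-loop-helix proteins without a DNA-binding region. They pair with basic helix-loop-helix (bHLH) transcription factors, in particular the E proteins, and keep them from DNA, and in epithelial cells they are associated with an undifferentiated and proliferative state. Bone morphogenetic proteins (BMPs) and TGF-beta act through receptor kinases that phosphorylate the signalling SMADs, which enter the nucleus with SMAD4. ID1, ID2 and ID3 are well-known direct targets of the BMP arm. SMAD6 and SMAD7 are induced by the same pathway and inhibit it: SMAD6 mainly acts on the BMP arm, and SMAD7 acts on both arms and recruits SMURF ubiquitin ligases to the receptors.

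Promoter sequence is shown for the 3 ID genes and the SMAD gene that changed in BT20 at 24 h, and for the stretch of the SMAD6 promoter that holds a complete SMAD palindrome. The sequences are from RefSeq (GRCh38.p14), which had promoters for all 6 genes, with 3 windows for SMAD7. The windows run 5′ to 3′ on the strand of the gene and end at the base before the start of the transcript. They are, in order, chr20:31605039-31605288 (plus strand), chr2:8681806-8682055 (plus strand), chr1:23559502-23559751 (minus strand), chr18:48950966-48951215 (minus strand) and chr15:66702176-66702235 (plus strand). Capitals mark matches to the motifs described after them.
ID1: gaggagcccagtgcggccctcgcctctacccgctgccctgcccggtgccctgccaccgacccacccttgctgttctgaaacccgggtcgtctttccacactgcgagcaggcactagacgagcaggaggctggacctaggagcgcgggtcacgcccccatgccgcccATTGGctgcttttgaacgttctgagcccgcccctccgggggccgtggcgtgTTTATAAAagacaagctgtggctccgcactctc
ID2: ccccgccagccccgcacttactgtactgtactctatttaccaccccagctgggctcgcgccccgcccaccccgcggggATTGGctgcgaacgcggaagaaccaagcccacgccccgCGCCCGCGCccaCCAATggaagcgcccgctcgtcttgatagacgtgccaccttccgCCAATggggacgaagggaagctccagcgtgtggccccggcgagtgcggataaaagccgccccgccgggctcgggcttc
ID3: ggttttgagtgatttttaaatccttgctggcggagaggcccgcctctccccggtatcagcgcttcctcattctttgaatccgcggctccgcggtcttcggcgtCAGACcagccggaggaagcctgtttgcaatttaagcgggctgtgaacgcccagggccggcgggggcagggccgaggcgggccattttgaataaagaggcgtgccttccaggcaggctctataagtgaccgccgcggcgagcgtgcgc
SMAD7: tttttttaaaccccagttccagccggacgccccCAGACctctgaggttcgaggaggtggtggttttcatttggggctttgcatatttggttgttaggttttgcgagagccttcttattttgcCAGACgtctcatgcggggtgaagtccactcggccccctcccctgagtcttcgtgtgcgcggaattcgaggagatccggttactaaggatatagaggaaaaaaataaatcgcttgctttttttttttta
SMAD6: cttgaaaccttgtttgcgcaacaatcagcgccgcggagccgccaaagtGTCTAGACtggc

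The motifs were searched on both strands over the 250 bases before each start. The SMAD motifs were the palindromic box GTCTAGAC, the short box CAGAC, which the palindrome does not contain, and the GC-rich box GGCGCC. The others were the EGR box GCGNGGGCG, the cyclic AMP response element TGACGTCA, the CCAAT box CCAAT and the TATA box TATAAA. The palindrome was found in SMAD6, beginning 12 bases before the start, and in 0.182% of the 35116 promoters in the table. CAGAC was found once in ID3 and 2 times in the SMAD7 promoter shown, and in 38.0% of all promoters. The EGR box of ID2 (8.41% of all promoters) begins 134 bases before the start and lies between CCAAT boxes that begin 172, 122 and 78 bases before it. The ID1 promoter had a CCAAT box, which 32.0% of promoters hold, 84 bases before the start and 2 overlapping matches to the TATA box, which 10.7% hold, 33 and 31 bases before it. ID4, whose promoter is not shown, had 3 EGR boxes and 1 match each to CAGAC, to the CCAAT box and to the TATA box. GGCGCC, found in 16.4% of promoters, and TGACGTCA, found in 1.65%, were in none of the windows of the 6 genes. A match is a description of these letters and not a binding site, and an absent match speaks only of these windows.

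In BT20 cells at 24 h of erlotinib, 3 of the 4 ID genes rose and SMAD7 fell. ID1 rose 17.2-fold, ID2 3.82-fold and ID3 2.07-fold, while SMAD7 fell by 1.09 on the log2 scale. ID4 and SMAD6 did not pass the test. At that time 32.8% of all genes tested were called, 18.9% higher and 13.9% lower, so a call by itself is common in this comparison. The median change of the 6 genes was 0.59, against 0.03 over all genes tested. A gene was called at an adjusted p under 0.05 from limma, with Benjamini-Hochberg adjustment over the 12643 genes. Changes are differences of mean log2 GCRMA values with the fitted standard error after ±, and SD is named where it is given instead.

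ID1, on chromosome 20 (31605289 to 31606510), had the largest change of the 6. Its only probe set gave log2 values of 5.59, 5.35, 5.23 and 6.79 in BT20 at 0 min, 4.57, 4.74 and 4.88 at 30 min, 6.48, 6.47 and 6.16 at 6 h, and 9.85, 9.94 and 9.75 at 24 h. All 24 h values lay above all others of the line, and at 0 min replicate 4 was the high one. The 24 h change was 4.10 ± 0.50 (n = 3 and 4, limma adjusted p = 1.65e-06), rank 14 from the highest of 12643 genes. With the batch term, under which 36.7% of genes were called at 24 h, it was 4.45 ± 0.50 (adjusted p = 5.92e-07).

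At 6 h ID1 differed from 0 min by 0.63 ± 0.50 (adjusted p = 0.344) and against replicate 4 alone by -0.42 ± 0.71, neither called. The 24 h arrays also lay above the 6 h arrays, with a 24 h mean of 9.84 ± 0.09, against 6.37 ± 0.19 at 6 h (SD, n = 3 each), and a difference of 3.47 ± 0.54 (adjusted p = 3.86e-05). At 30 min the 3 values lay below all 4 of the 0 min values. That difference of -1.01 ± 0.50 had an unadjusted p of 0.0571 and an adjusted p of 1.00 in limma, and it ranked 11 from the lowest of all genes. Without replicate 4 of the 0 min group, and equally with the batch term, it was -0.66 ± 0.50.

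ID2, on chromosome 2 (8682056 to 8684461), was near the lower limit of detection in untreated BT20 cells. Its leading probe set read 3.68, 3.28, 4.02 and 3.06 at 0 min, 3.84, 2.96 and 3.75 at 30 min, 3.47, 3.94 and 3.93 at 6 h, and 5.33, 5.16 and 5.84 at 24 h. Only the 24 h arrays were clearly above 4, the level used for testing, so the size of the rise is inexact. It was 1.94 ± 0.29 (n = 3 and 4, limma adjusted p = 1.80e-05), and 1.78 ± 0.30 with the batch term. The second ID2 probe set (201566_x_at) rose by 1.30 ± 0.24 at 24 h and by 0.86 ± 0.24 already at 6 h (adjusted p = 0.00896), with a 6 h mean of 3.74 against 2.89 at 0 min, both below 4. Its 6 h difference was 0.45 ± 0.34 with the batch term and not called (adjusted p = 0.910). The leading probe set differed by 0.27 ± 0.29 at 6 h and by 0.72 ± 0.42 against replicate 4 alone, neither called.

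ID3, on chromosome 1 (23557926 to 23559501), was well detected throughout. Its probe set read 9.28, 9.35, 9.63 and 10.09 at 0 min, 9.20, 9.16 and 9.23 at 30 min, 10.19, 10.14 and 9.95 at 6 h, and 10.48, 10.53 and 10.89 at 24 h. The 24 h arrays were above all 0 min arrays, while the 6 h arrays overlapped with replicate 4 of the 0 min group. The 24 h change was 1.05 ± 0.31 (n = 3 and 4, limma adjusted p = 0.0121) and 1.22 ± 0.32 with the batch term. Without replicate 3 of the 24 h group it was 0.92 and no longer called (adjusted p = 0.0637). At 6 h it differed by 0.51 ± 0.31 (adjusted p = 0.205) and by 0.00 ± 0.45 against replicate 4 alone. The 6 h difference with all controls was called in fits to the BT20 arrays alone (adjusted p = 0.029) and to Part 1 alone (0.0364). It was also called with array weights (adjusted p = 6.29e-06).

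ID4, on chromosome 6 (19837370 to 19842197), stayed between 8.18 and 8.74 on all 13 BT20 arrays by its leading probe set. At 24 h the values were 8.49, 8.61 and 8.74, against 8.54, 8.43, 8.68 and 8.30 at 0 min, and the groups overlapped. The difference was 0.13 ± 0.17 (n = 3 and 4, limma adjusted p = 0.622, 95% interval -0.22 to 0.48), and 0.07 ± 0.17 with the batch term. Its probe sets did not move together. The second, 226933_s_at, differed by -0.16 ± 0.26, whereas 209292_at rose by 0.83 ± 0.19 (adjusted p = 0.00199), to 4.83 ± 0.13 at 24 h, against 4.00 ± 0.23 at 0 min (SD, n = 3 and 4). The last 2, 209293_x_at and 229386_at, did not exceed 3.64 and 2.77 on any array.

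SMAD7, on chromosome 18 (48919853 to 48950965), read 6.11, 6.01, 6.12 and 7.15 at 0 min, 5.90, 5.05 and 5.89 at 30 min, 6.37, 6.45 and 6.38 at 6 h, and 4.96, 5.34 and 5.47 at 24 h. The 24 h arrays were below all 0 min arrays, and so were the 30 min arrays. SMAD7 fell by 1.09 ± 0.27 at 24 h (n = 3 and 4, limma adjusted p = 0.00301) and by 0.82 ± 0.23 with the batch term (adjusted p = 0.00858). At 30 min the difference was -0.74 ± 0.27, with an unadjusted p of 0.012 and an adjusted p of 1.00, and -0.47 ± 0.23 with the batch term. At 6 h it was 0.05 ± 0.27 with all controls and -0.75 ± 0.33 against replicate 4, neither called.

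SMAD6, on chromosome 15 (66702236 to 66782849), was the one gene of the 6 called at 6 h in the fit to all arrays. Its leading probe set read 7.996, 8.04, 8.05 and 7.25 at 0 min, 8.16, 8.19 and 7.74 at 30 min, 6.42, 6.58 and 6.52 at 6 h, and 7.55, 7.55 and 7.70 at 24 h. The 6 h arrays were below every other BT20 array, and replicate 4 was the 0 min array nearest to them. SMAD6 fell by 1.33 ± 0.26 at 6 h (n = 3 and 4, limma adjusted p = 0.000627), in a comparison in which 38.2% of genes were called. Against replicate 4 alone the difference was -0.74 ± 0.35 and not called (adjusted p = 0.471), in a fit that called 2.31% of genes; with replicate 4 left out it was -1.52 and called. Of its other probe sets, 213565_s_at fell by 0.52 ± 0.17 (adjusted p = 0.0199) at 6 h, a call lost with the batch term (-0.19 ± 0.23), and 209887_at differed by -0.32 ± 0.34, both at means below 4, and 209886_s_at did not exceed 3.96 on any array. At 24 h SMAD6 differed from 0 min by -0.23 ± 0.26 (adjusted p = 0.554), and by -0.43 ± 0.25 with the batch term (adjusted p = 0.203).

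**Figure D1:**
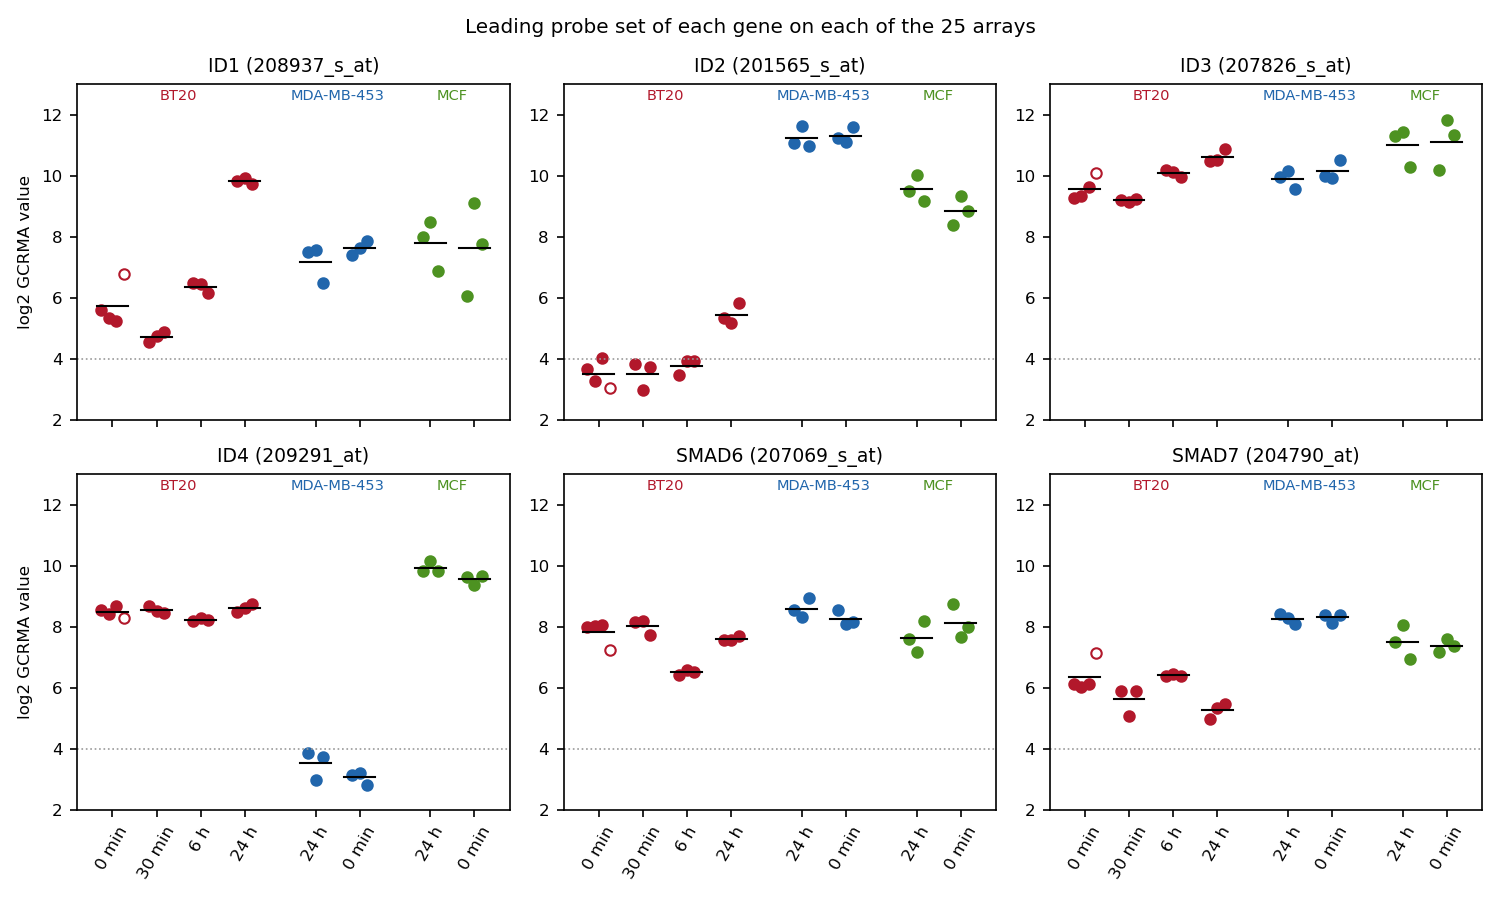
Log2 GCRMA value (y axis) of the leading probe set of each gene on each array (points), by line and time (x axis); black bars are group means, the dotted line is the level of 4 used for testing, and the open circle is replicate 4 of BT20 at 0 min. ID1 in BT20 stands at 9.75 to 9.94 at 24 h, above all its earlier values of 4.57 to 6.79.

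None of the 6 genes was called at 30 min, when 0.0158% of all genes were; SMAD7 alone had an unadjusted p under 0.05. Between 6 h and 24 h in BT20, ID1 (3.47 ± 0.54), ID2 (1.66 ± 0.31) and SMAD6 (1.10 ± 0.27) were higher and SMAD7 lower (-1.14 ± 0.29) at 24 h, with limma adjusted p-values up to 0.0032. In that comparison 41.7% of genes were called. It uses no 0 min array, but the batch term reaches it through the 6 h arrays. With the term only ID1 was called (4.88 ± 0.87, adjusted p = 0.000716), in a fit that called 11.5% of genes. ID2 then differed by 1.06 ± 0.51, SMAD6 by 0.31 ± 0.43 and SMAD7 by -0.07 ± 0.40.

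At 0 min replicate 4 differed from the mean of the other 3 arrays by 1.40 for ID1, 0.68 for ID3, 1.07 for SMAD7, -0.78 for SMAD6, -0.60 for ID2 and -0.25 for ID4. For ID1, ID3, ID4, SMAD6 and SMAD7 the 6 h mean lay on the same side of replicates 1 to 3 as replicate 4 did, and for ID2 on the other side. With replicate 4 left out, the 6 h difference was 0.98 for ID1 and 0.32 for SMAD7, neither called, and SMAD6 stayed the one gene called. The cause of the difference between the 0 min arrays was not tested.

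In MDA-MB-453 cells none of the 6 genes was called at 24 h, when 5.77% of all genes were. ID1 read 7.51, 7.56 and 6.49 at 24 h, against 7.42, 7.64 and 7.85 at 0 min, a difference of -0.45 ± 0.54 (n = 3 each, limma adjusted p = 0.840, 95% interval -1.58 to 0.69). The groups overlapped, with replicate 3 at 24 h the low array. ID2 was high, with means of 11.24 ± 0.36 at 24 h and 11.32 ± 0.26 at 0 min (SD, n = 3 each). ID3 differed by -0.25 ± 0.33, SMAD6 by 0.33 ± 0.27 and SMAD7 by -0.05 ± 0.29. ID4, below 4 on all 6 arrays, read 3.85, 2.97 and 3.72 at 24 h, against 3.14, 3.20 and 2.82 at 0 min. ID4 passed the filter through the other lines, so no change is read from these values. A fit to the arrays of this line alone called 8.3% of genes and none of the 6.

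In MCF cells none of the 6 was called either, when 3.2% of all genes were; a fit to the MCF arrays alone called 0.00791% of genes and none of the 6. ID1 read 8.01, 8.48 and 6.89 at 24 h, against 6.05, 9.10 and 7.76 at 0 min, a spread of 3.05 log2 units within the 0 min group. The difference was 0.16 ± 0.54 (n = 3 each, limma adjusted p = 0.966, 95% interval -0.97 to 1.29). That standard error and interval use the spread pooled over all lines. In the fit to the MCF arrays alone the standard error was 0.82, so the interval is too narrow for this line. In both MCF groups replicate 2 was the highest array for ID1, ID2, ID3 and SMAD7 and the lowest for SMAD6. The arrays at the other end were replicate 1 at 0 min and replicate 3 at 24 h, for the same 5 genes. So these genes varied together between arrays of 1 group. Over all genes tested, the deviations of replicate 2 from its group mean at 0 min and at 24 h also correlated (r = 0.80). The pattern is therefore not read as particular to these genes, and its cause was not tested.

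ID2 in MCF read 9.52, 10.04 and 9.16 at 24 h, against 8.38, 9.34 and 8.86 at 0 min. The difference of 0.71 ± 0.31 had an unadjusted p of 0.0312 and an adjusted p of 0.312 in limma. ID4 read 9.82, 10.14 and 9.83 at 24 h, all above the 0 min values of 9.65, 9.38 and 9.65, with a difference of 0.37 ± 0.18 (unadjusted p = 0.0491, adjusted p = 0.388). ID3 had means of 11.02 ± 0.62 at 24 h and 11.12 ± 0.84 at 0 min (SD, n = 3 each). SMAD6 differed by -0.49 ± 0.27 and SMAD7 by 0.11 ± 0.29.

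**Figure D2:**
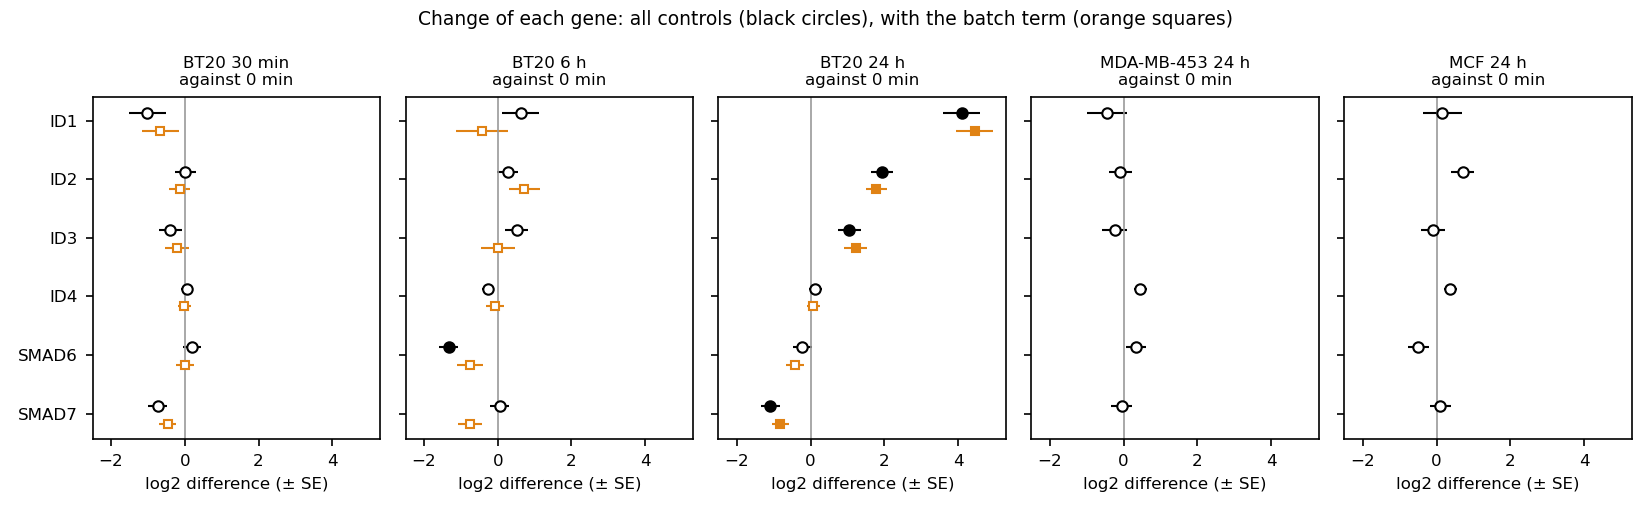
Difference of the mean log2 value from 0 min (x axis, ± fitted standard error) for the 6 genes (y axis) in 5 comparisons; black circles use all controls, orange squares the batch term in BT20, and filled symbols are called at an adjusted p under 0.05. At 24 h in BT20 ID1, ID2, ID3 and SMAD7 are filled in both fits, SMAD6 at 6 h in one, and none in the other 2 lines.

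The change at 24 h was then compared between lines by testing the difference itself. ID1 changed by 4.55 ± 0.73 more in BT20 than in MDA-MB-453 (limma adjusted p = 0.000133) and ID2 by 2.02 ± 0.42 more (adjusted p = 0.0017), where 14.8% of genes were called. For ID3 the difference was 1.29 ± 0.45 (adjusted p = 0.0621) and for SMAD7 -1.05 ± 0.39 (adjusted p = 0.0828), neither called. In a fit to the BT20 and MDA-MB-453 arrays alone both were called (adjusted p = 0.00317 for ID3 and 0.0476 for SMAD7). With the batch term, under which 19.7% of genes were called, ID3 was called (1.46, adjusted p = 0.027). Against MCF, ID1 changed by 3.94 ± 0.73 more in BT20 (adjusted p = 0.000616) and SMAD7 by -1.20 ± 0.39 (adjusted p = 0.0414), where 15.4% of genes were called. The SMAD7 call was lost in 10 of 24 alternatives, and ID2 missed it at 1.23 ± 0.42 (adjusted p = 0.0522). With the batch term, under which 21.5% of genes were called, SMAD7 was not called (-0.93, adjusted p = 0.051) and ID3 was (1.31, adjusted p = 0.0452). ID4 and SMAD6 were called in neither comparison. Both comparisons use the same BT20 arrays.

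Before treatment the lines of Part 1 differed in which ID genes lay above the level of 4. ID2 was lower in BT20 than in MDA-MB-453, at 3.51 ± 0.43 against 11.32 ± 0.26, and ID4 higher, at 8.49 ± 0.16 against 3.06 ± 0.21 (SD, n = 4 and 3). The differences were -7.81 ± 0.29 (limma adjusted p = 6.18e-16) and 5.43 ± 0.17 (adjusted p = 2.63e-17), each with the lower mean below 4 and so inexact in size. In this comparison 66.7% of genes were called. ID1 (difference -1.90 ± 0.50, adjusted p = 0.00233) and SMAD7 (difference -1.96 ± 0.27, adjusted p = 1.62e-06) were lower in BT20.

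ID3, at 9.59 ± 0.37 in BT20 against 10.15 ± 0.32 in MDA-MB-453 (SD, n = 4 and 3), and SMAD6, at 7.83 ± 0.39 against 8.26 ± 0.24, were not called at 0 min. With the batch term ID3 was called lower in BT20 (difference -0.74, adjusted p = 0.0487), in a fit that called 68.8% of genes. Both ID2 probe sets and all 3 ID4 probe sets that passed the filter were called in the direction of the leading one. Of the SMAD6 probe sets, 209887_at was lower in BT20 (difference -0.90 ± 0.34, adjusted p = 0.0251), with both means below 4, and the other 2 were not called. At 24 h ID1 stood at 9.84 ± 0.09 in BT20, against 7.19 ± 0.60 in MDA-MB-453 (SD, n = 3 each), the opposite order to that at 0 min; the 24 h levels were not tested against each other.

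**Figure D3:**
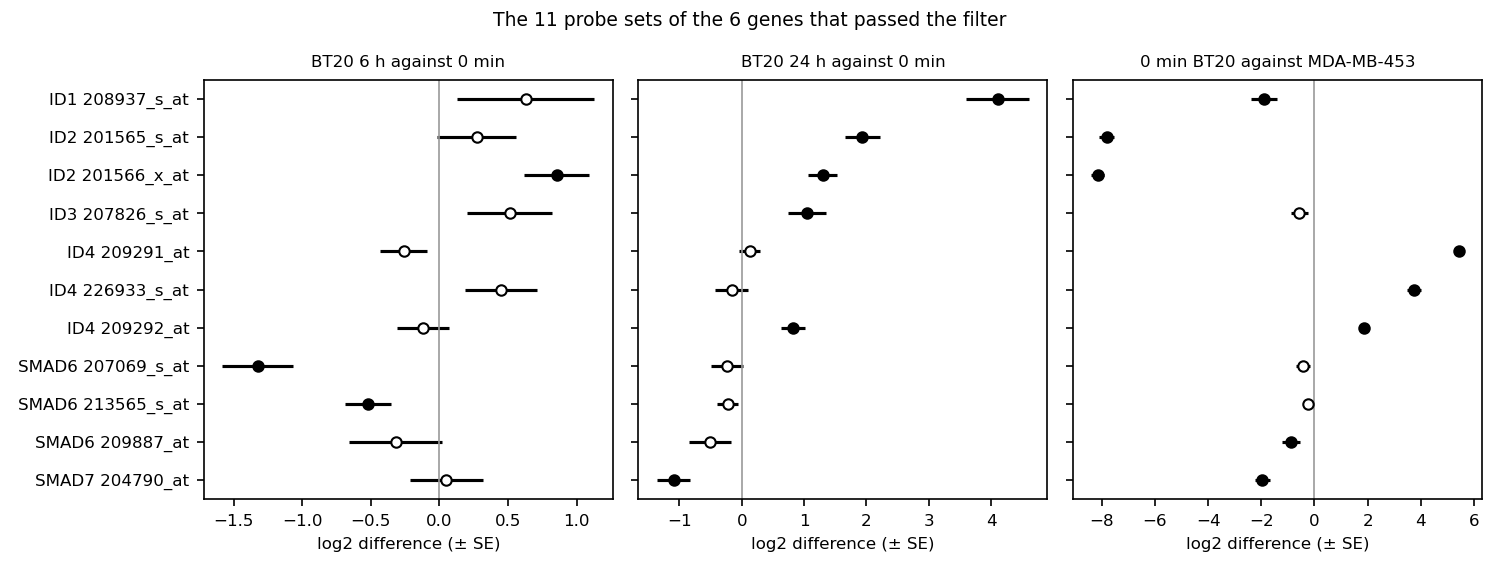
Difference of mean log2 values (x axis, ± fitted standard error; the scale differs between panels) for each of the 11 probe sets that passed the filter (y axis), at 6 h and at 24 h against 0 min in BT20 and between BT20 and MDA-MB-453 at 0 min; filled points are called. Both ID2 probe sets are called higher at 24 h, while 1 of 3 ID4 probe sets is.

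The other genes of the pathway were read from 6 lists, ordered by role. None of the genes of any list was called in BT20 at 30 min. The counts at 24 h in BT20 stand beside 18.9% of all genes called higher and 13.9% lower. Among 15 ligands tested, 1 rose and 3 fell in BT20 at 24 h. INHBE, which encodes an activin subunit, rose by 1.68 ± 0.23, to a mean of 4.07 at 24 h against 2.39 at 0 min, with a limma adjusted p of 7.01e-06. At 6 h it was already higher by 2.07 ± 0.23 (adjusted p = 2.45e-06), and by 1.71 against replicate 4 alone. In MCF it rose by 2.36 ± 0.25 in the fit to all arrays (adjusted p = 7.04e-06). It was not called in the fit to the MCF arrays alone (adjusted p = 0.143), which called 0.00791% of all genes. GDF11 fell by 1.38 ± 0.28, TGFB2 by 0.81 ± 0.21 and BMP6 by 1.10 ± 0.23, the last at means below 4.

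Among 11 receptors 3 rose and 3 fell in BT20 at 24 h, when 32.8% of all genes were called. The batch term gave 3 higher and 4 lower, in a fit that called 36.7% of all genes. ACVR2B, a type II receptor of activins and BMPs, rose by 1.75 ± 0.19 in BT20 and by 0.94 ± 0.20 in MDA-MB-453 (limma adjusted p = 0.00503 in MDA-MB-453, 0.0732 in a fit to its arrays alone). The type II BMP receptor BMPR2 rose by 0.78 ± 0.13 at 6 h and by 0.70 ± 0.13 at 24 h in BT20. TGFBR1, the type I TGF-beta receptor, fell by 0.64 ± 0.16, and the coreceptor TGFBR3 fell by 1.62 ± 0.32 to a mean of 2.37, after a 6 h value 1.34 ± 0.32 above 0 min. Against replicate 4 alone the 6 h difference of TGFBR3 was 0.18 and that of BMPR2 0.60, neither called.

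Of 14 signalling SMADs and SMAD partners, 1 rose and 1 fell in BT20 at 24 h. ZNF423, a zinc-finger partner of the BMP-activated SMADs, rose by 2.01 ± 0.20 in BT20 and by 0.86 ± 0.21 in MDA-MB-453 and differed by 0.04 ± 0.21 in MCF. RUNX2 fell by 0.78 ± 0.16 in BT20. FOXH1 (0.90 ± 0.38) and the corepressor SKI (-0.73 ± 0.34) did not pass. With the batch term 4 of this list were higher and 2 lower, in a fit that called 36.7% of all genes.

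Among 10 inhibitors and SMAD ubiquitin ligases tested, 1 rose and 5 fell in BT20 at 24 h. NOG, which encodes the BMP antagonist noggin, fell by 2.62 ± 0.27 at 6 h and by 2.06 ± 0.27 at 24 h, to a mean of 9.51 at 24 h against 11.58 at 0 min. Against replicate 4 alone its 6 h difference was -2.21 (limma adjusted p = 0.0023). In MCF it fell by 1.41 ± 0.29 in the fit to all arrays (adjusted p = 0.00614). It was not called in the fit to the MCF arrays alone (adjusted p = 0.198), which called 0.00791% of all genes. NOG was at 2.65 and 2.92 at 24 h and 0 min in MDA-MB-453. The ubiquitin ligase gene NEDD4L fell by 1.14 ± 0.19 and SMURF2 by 0.53 ± 0.16, whereas the pseudoreceptor BAMBI, itself a target of the pathway, rose by 0.96 ± 0.23. With the batch term 3 of this list were higher and 4 lower at 24 h, in a fit that called 36.7% of all genes.

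Among 22 other genes known as targets of BMP or TGF-beta, 3 rose and 7 fell in BT20 at 24 h, with a median of -0.28 against 0.03 over all genes, of which 18.9% were called higher and 13.9% lower. The batch term gave 4 higher and 9 lower, in a fit that called 36.7% of all genes. The homeobox genes DLX2 and DLX3 rose by 1.92 ± 0.21 and 2.01 ± 0.31. The transglutaminase gene TGM2 fell by 4.79 ± 0.35 and SNAI2, which encodes the repressor Slug, by 1.87 ± 0.21. In MDA-MB-453 1 of the 22 was called, higher, and in MCF none was, beside 5.77% and 3.2% of all genes.

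Of 14 bHLH factors, among them the E proteins TCF3, TCF4 and TCF12, 1 rose and 1 fell in BT20 at 24 h, when 32.8% of all genes were called. The batch term gave 2 higher and 2 lower, in a fit that called 36.7% of all genes. BHLHE41, a circadian repressor, rose by 1.11 ± 0.21 and the Notch target HEY1 fell by 0.45 ± 0.17 (limma adjusted p = 0.0488). HEY2 differed by -0.92 ± 0.35 (adjusted p = 0.0515), and was called with the batch term (-1.14, adjusted p = 0.0168). HES2 differed by 0.61 ± 0.31. DUSP6, a phosphatase gene that follows ERK output, fell by 5.93 ± 0.19 in BT20 at 24 h, to a mean of 3.27, which is below 4 and leaves the size inexact. It fell by 1.56 ± 0.21 in MCF and differed by -0.19 ± 0.21 in MDA-MB-453. The DUSP6 call in MCF was lost in the fit to the MCF arrays alone (limma adjusted p = 0.198). That fit called 0.00791% of all genes, so the loss of a call there says little about a single gene. EGFR itself differed by -0.54 ± 0.23 in BT20 and was not called in the fit to all arrays (adjusted p = 0.0841). In the fit to the BT20 arrays alone it was called lower (adjusted p = 0.000788). In MCF and MDA-MB-453 its means were below 4, and a call in MCF (-0.97 ± 0.25, adjusted p = 0.0347) was lost in the fit to the MCF arrays alone (adjusted p = 0.885).

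**Figure D4:**
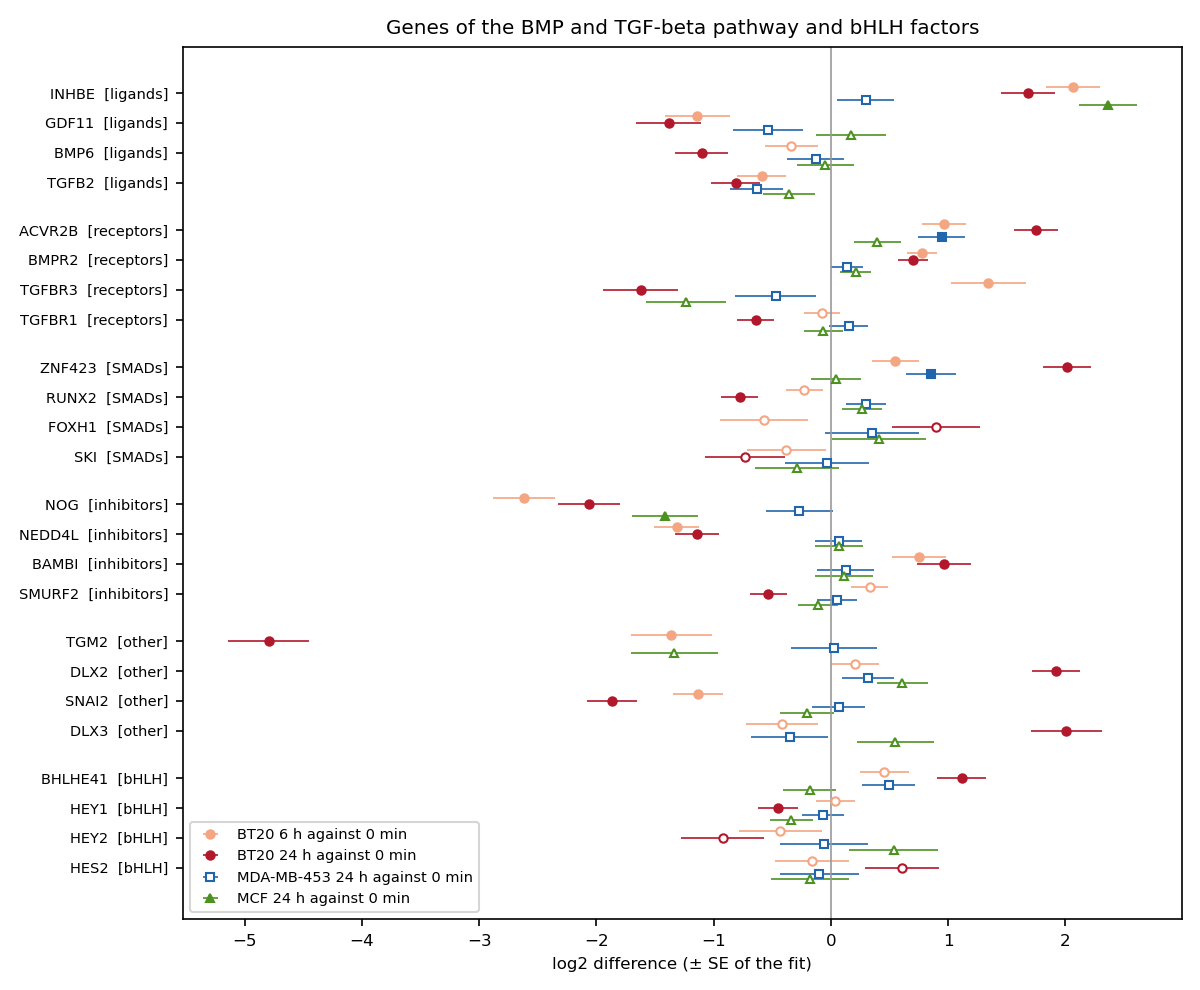
Difference of mean log2 values from 0 min (x axis, ± fitted standard error) for up to 4 genes of each list (y axis, list in brackets), those with the smallest p in BT20 at 24 h; colours give line and time and filled symbols are called. NOG is called lower in BT20 at 6 h and 24 h and in MCF, and ZNF423 is higher in BT20 and MDA-MB-453 at 24 h.

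The genes most like each of the 6 were taken as those with the smallest root mean square difference over 5 changes from 0 min (BT20 at 30 min, 6 h and 24 h, and the other 2 lines at 24 h). For ID1 these were HSD17B4 (0.40), SIDT1 (0.50) and SLC39A2 (0.51). HSD17B4 changed by 3.95 in BT20 at 24 h and by 0.14 in MDA-MB-453. For ID2 they were PDZK1, PCBP3 and SLC29A3 (0.15 to 0.17), and for ID3 TSPAN15, ZNF385A and TMEM238L (0.11 to 0.12). For SMAD6 they were GHDC, TRIM47 and RPP25 (0.13 to 0.15), and for SMAD7 BNC2, IL6 and KLF6 (0.16 to 0.20). Among the 6 genes themselves ID2 and ID3 were closest (0.58) and ID1 and SMAD7 farthest apart (2.35). The 3 BT20 changes share their 0 min arrays, so these measures are descriptions. The arrays measured whole cultures, in which fewer cells with a transcript and less transcript per cell cannot be told apart.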

How the data were processed

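Total RNA of 25 samples was hybridised to Affymetrix arrays. What the authors deposited is a log2 value per probe set, computed with GCRMA 2.20.0 in R 2.11.1 per the submitters' processing notes. GCRMA corrects background by probe sequence, normalizes across arrays and summarises probes, which compresses differences near the floor. The scanner images and raw intensities were not used here.

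The deposited values were analysed in R 4.3.3 without further normalization. Of 54613 probe sets, 41091 had 1 gene symbol, 1801 several and 11721 none in the annotation used. Each gene was represented by its single-symbol probe set with the highest mean, and tested when above a log2 value of 4 on at least 3 arrays. A linear model with 8 group means was fitted with limma 3.58.1 to the 25 arrays together (17 residual degrees of freedom, empirical Bayes, two-sided p, Benjamini-Hochberg adjustment over 12643 genes). Probe sets were also tested singly, with adjustment over 24585. The fit to all arrays was tried on 1 simulated data set with a separate spread for each line. Its share of false calls there was above the nominal one. Far fewer genes were changed there than were called in BT20 at 24 h, so the share in these data may differ. Fits to the arrays of 1 line alone are also given. No 2 arrays were identical.

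The comparisons were BT20 at each time with 0 min, BT20 at 24 h with 6 h, each other line at 24 h with its 0 min arrays, the differences of the 24 h change between lines, and the 0 min levels of BT20 and MDA-MB-453. The 6 genes, the lists and all choices were made with earlier results of these data known. Named are the 6 genes, EGFR, DUSP6, up to 4 genes of each list with the smallest p in BT20 at 24 h, and the 3 genes most like each of the 6 where it was called in a change from 0 min. Alternatives were other filters, probe set summaries, empirical Bayes settings, array weights, repeated quantile normalization, median centring, a replicate block, fits to fewer arrays, a batch term and leaving out each array.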

Additional observations from a re-analysis of the deposited data

Results flagged for a closer look

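For SMAD6 and SMAD7 the value of BT20 0 min replicate 4 stood apart from those of the other 3 arrays of its group. SMAD6 read 7.25 there, against 7.996 to 8.05 on the others, and SMAD7 read 7.15, against 6.01 to 6.12. Among the 11 probe sets tested in this group of 4, chance alone flags about 1 in 20.

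The change at 24 h differed between lines, by the test of the difference itself, for 3 of the 6 genes. It was greater in BT20 than in MDA-MB-453 by 4.55 ± 0.73 for ID1 and by 2.02 ± 0.42 for ID2. In that comparison 14.8% of all genes were called. Between BT20 and MCF it differed by 3.94 ± 0.73 for ID1 and by -1.20 ± 0.39 for SMAD7, where 15.4% of all genes were called. The SMAD7 call was lost in 10 of 24 alternatives.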

How the results depend on the processing

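The calls of ID1, ID2 and SMAD7 at 24 h in BT20, of ID1 for 24 h with 6 h, of the 4 genes called between the lines at 0 min, of ID1 in both differences between lines and of ID2 in that with MDA-MB-453 were kept under every alternative run. Over all comparisons, called values of the 6 genes lost the call in 8 of 139 cases of leaving out 1 array and in 7 of 198 cases of another alternative, and none changed sign. Values not called became called in 9 and 41 cases and changed sign in 20 and 17.

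Counts of called genes moved by over 1.5 times as follows. At 30 min in BT20 array weights gave 2, against 0. At 6 h in BT20 array weights gave 4, averaging the probe sets of each gene, the line alone and Part 1 alone gave 2 each, and the batch term 0, against 1. For 24 h with 6 h the batch term gave 1, against 4. In MDA-MB-453 array weights gave 1, against 0, and leaving out 1 array gave 0 to 1, the gene being ID4 at values below 4. For BT20 and MDA-MB-453 array weights gave 6 and repeated quantile normalization, the lines alone and Part 1 alone 4 each, against 2. For BT20 and MCF array weights and a replicate block gave 4 each, against 2. No filter and the lines alone gave 1 each there, and leaving out 1 array gave 1 to 3. Apart from the batch term, whose construction leaves replicate 4 as the 6 h control, the cause was not tested. Of these alternatives, the share of all genes called is given above only for the batch term. The other moved counts are therefore not read as particular to the 6 genes.

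SMAD7 in the difference between BT20 and MCF ran from -1.48 to -0.92, with adjusted p up to 0.124. The call was lost without BT20 24 h replicate 1 or 2, BT20 0 min replicate 4, MCF 0 min replicate 1 or 3 or MCF 24 h replicate 1 or 2. Most same-numbered samples did not deviate together. Correlations were above 0.1 in 4 of 18 pairs in BT20, 1 of 3 in MDA-MB-453 and 1 of 3 in MCF. The MCF pair, replicate 2 at 0 min and 24 h, had a correlation of 0.80, and the highest in BT20 was 0.36. The replicate numbers were not used as pairs in the main fit. With a replicate block the 0 min levels of different lines could not be fitted. Detection limits ID2 in BT20 and ID4 in MDA-MB-453, both near or below a log2 value of 4.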
